A study of Rattus norvegicus with 12 samples.

Results

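Potassium and sodium channels set the excitability of neurons, and 37 genes for such channels were followed here in rat retinal ganglion cells (RGCs), which send the output of the retina to the brain, cultured with or without endothelins. The genes were those whose annotated symbol begins with Kcn, or with Scn and a digit. A gene was kept if 1 of its probe sets reached, in mean log2 signal over all 12 arrays, the median of those means across the array, and its brightest probe set represented it. Of 87 genes matched by symbol, on 140 probe sets, 37 met this limit and 50 lay below it. Over the whole array, 9425 genes were named by a probe set over the limit, the 37 among them. The choice used the mean signal over all arrays and not the difference between groups, but it was made with earlier results of these data known.

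The 4 groups were RGCs given 1 of the endothelin peptides ET-1, ET-2 and ET-3, each at 100 nM for 24 h, and untreated RGCs, which the sample descriptions call vehicle-treated. Each group had 3 Affymetrix Rat Genome 230 2.0 arrays, numbered as biological replicates 1 to 3. All cells came from Sprague-Dawley pups between postnatal days 4 and 6 and were purified by Thy-1.1 antibody panning, which selects cells by a surface antigen that RGCs carry. All were kept 7 days without serum, with forskolin at 5 ng/mL, the ciliary factor CNTF at 10 ng/mL and the brain-derived factor BDNF at 50 ng/mL, then overnight without the neurotrophic factors, so every group, untreated included, had gone through factor withdrawal in dissociated culture. The labels do not say whether a number marks 1 litter, preparation or day, nor how many pups were pooled. P-values of the main fit therefore measure the spread between these arrays that is left after differences between replicate numbers are taken out. The number of arrays limits the precision.

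Voltage-gated sodium channels carry the rising phase of the action potential: an alpha subunit forms the pore and beta subunits adjust its gating and place it in the membrane. Voltage-gated potassium (Kv) channels repolarise the membrane, with auxiliary subunits that alter their gating or traffic. Inward rectifiers and K2P leak channels hold the resting potential, and large-conductance calcium-activated (BK) channels couple calcium entry to repolarisation. In RGCs the spike begins in the initial segment of the axon, where ankyrin-G anchors sodium channels. Endothelins are vasoactive peptides that act through the endothelin A and B receptors, which couple to G proteins.

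By role, 14 of 24 Kv pore genes met the signal limit, 7 of 11 genes for auxiliary subunits, 4 of 15 inward rectifiers, 3 of 11 K2P channels and 2 of 7 calcium- or sodium-activated channels. Of the sodium channels, 5 of 9 alpha subunits and 2 of 3 beta subunits met it, and none of the 7 electrically silent Kv subunits did. The limit was a signal of 147.5, taken as a geometric mean over the 12 arrays. Just inside it lay Kcnip2 at 155.84, Kcnj5 at 162.62 and Kcnk4 at 169.98. Just outside lay Kcnk3 at 143.11, Kcnk2 at 141.0 and Kcnt1 at 135.15. Probes differ in affinity, so signals of different genes were not set against each other.

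The promoter windows of Kcna2 and Scn2a are shown because these were the 2 channel genes that passed the test for the mean of the 3 endothelins, and because the windows differ in base composition. Each runs from 250 bases before to 50 bases after a RefSeq transcription start in the GRCr8 assembly. Kcna2 lies at chr2:197393280-197393579 and Scn2a at chr3:70710706-70711005, both on the plus strand. Capitals mark the GC box, GGGCGG, or CCGCCC where it lies on the other strand.
Kcna2: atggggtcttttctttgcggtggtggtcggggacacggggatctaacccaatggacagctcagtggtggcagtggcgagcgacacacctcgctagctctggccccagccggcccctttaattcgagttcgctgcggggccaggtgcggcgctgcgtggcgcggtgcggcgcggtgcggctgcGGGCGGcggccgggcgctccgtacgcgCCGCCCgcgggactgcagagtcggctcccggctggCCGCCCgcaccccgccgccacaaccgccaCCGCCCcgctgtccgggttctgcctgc
Scn2a: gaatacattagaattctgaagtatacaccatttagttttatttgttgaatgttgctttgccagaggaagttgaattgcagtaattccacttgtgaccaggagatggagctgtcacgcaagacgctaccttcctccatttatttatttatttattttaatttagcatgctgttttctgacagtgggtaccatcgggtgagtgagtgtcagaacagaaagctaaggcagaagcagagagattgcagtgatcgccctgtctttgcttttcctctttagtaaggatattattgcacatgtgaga

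The Kcna2 window had 73.3% G or C and 4 GC boxes, and the Scn2a window had 39.3% and none. The RefSeq promoter table held 29 windows for 27 of the 37 channel genes. GC content in these had a median of 60.3%, against 51.7% over all 33469 windows. A GC box stood on either strand in 16 of the 29 (55.2%), against 33.06% of all windows. The TATA box, TATAAA, was in none of the 29, against 14.22% of all windows. The E-box CACGTG was in 1 of 29 (that of Kcne4), against 6.42% of all windows. None of the 29 held the cAMP response element TGACGTCA, the AP-1 site TGACTCA or the RE1 letters TTCAGCACC, which stood in 1.83%, 4.63% and 0.36% of all windows. All 6 motifs were searched on both strands. None of the 6 contains another, a match is not a bound site, and the absence of a match says only that these letters are not in the window.

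Kcna2 and Scn2a fell for the mean of the 3 endothelins, and no channel gene rose. Kcna2 encodes Kv1.2, a low-threshold potassium channel of axons, and it also fell in the single contrasts of ET-1 and of ET-3 against untreated within the fit of all 12 arrays. Scn2a encodes Nav1.2, a sodium channel pore of unmyelinated axons and initial segments. Scn3b, a sodium channel beta subunit, fell with ET-3. Each of these changes was a decrease of less than 25% in mean signal. RNA was taken from whole cultures, so fewer cells of a type and less RNA per cell cannot be told apart.

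The call counts came from limma on log2 signal with the replicate number as a block, with Benjamini-Hochberg adjustment over the 15521 probe sets at or above the limit and a threshold of 0.05. With ET-1, 1 of 37 channel genes was lower, where 0.219% of all probe sets were called lower and 1.51% higher. With ET-2, 0 of 37 were called, where 0.322% of all probe sets were called lower and 1.28% higher. With ET-3, 2 of 37 were lower, where 0.509% of all probe sets were called lower and 2.13% higher. For the mean of the 3 endothelins, 2 of 37 were lower, where 1.35% were called lower and 3.54% higher. At an unadjusted limma p under 0.05, 6 of 37 passed with ET-1, 7 with ET-2, 7 with ET-3 and 10 for the mean, all lower, where 15.5%, 16.3%, 17.8% and 21.8% of all probe sets passed in either direction. The share of all probe sets that passed in the lower direction alone is not given here, so that direction has no matched background. Centring each array on its median changed the whole-table split of calls. It became 193 higher and 1025 lower for ET-2, 228 and 218 for ET-3 and 426 and 1066 for the mean, against 199 and 50, 331 and 79, and 549 and 209 in the uncentred fit. All comparisons with untreated share the same 3 untreated arrays. With no term for the replicate number, limma called 0 of the 15521 probe sets in any comparison, and the adjusted p of Kcna2, Scn2a and Scn3b was between 0.9998 and 1.0.

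Kcna2 (probe set 1379092_at) had signals of 1374, 1470.4 and 1974 on ET-1 replicates 1, 2 and 3, 1389.5, 1668 and 2093 on the ET-2 arrays, and 1229, 1508 and 1984 on the ET-3 arrays, against 1644, 2072 and 2306 on the untreated arrays. All 9 endothelin arrays lay below the untreated array of their own number, while the groups overlapped when numbers were ignored. The log2 change was -0.33 ± 0.07 (SE) with ET-1 (limma adjusted p = 0.0274), -0.23 ± 0.07 with ET-2 (adjusted p = 0.116) and -0.36 ± 0.07 with ET-3 (adjusted p = 0.0132). For the mean of the 3 endothelins it was -0.31 ± 0.05 (limma adjusted p = 0.00695), a fold of 0.808. The ET-1 call ended without ET-1 replicate 1, 2 or 3, ET-2 replicate 3, or untreated replicate 1 or 2. It also ended without any 1 of the 3 replicate numbers (highest limma adjusted p = 0.352, without number 2). The ET-3 call ended without ET-3 replicate 1 or 2, untreated replicate 2, or number 1 or 2 (up to 0.149). The call for the mean ended without untreated replicate 2 (0.0517), number 1 (0.0538) or number 2 (0.116). A further Kcna2 probe set lay below the limit, at a geometric mean signal of 39.3, and its log2 change for the mean was -0.03 ± 0.51.

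Scn2a (1369662_at) had signals of 2278, 2549 and 1784 with ET-1, 2236, 2615 and 1751 with ET-2, and 2143, 2628 and 1748 with ET-3, against 2617, 3224 and 1884 on untreated arrays. Each endothelin array again lay below the untreated array of its number, and arrays of number 3 were the lowest in every group. The log2 change was -0.21 ± 0.06 with ET-1, -0.21 ± 0.06 with ET-2 and -0.23 ± 0.06 with ET-3, none past the threshold (limma adjusted p = 0.114, 0.108 and 0.0626 for ET-1, ET-2 and ET-3). For the mean it was -0.22 ± 0.05 (limma adjusted p = 0.0246), a fold of 0.861. That call ended without ET-1 replicate 2 (0.0512), ET-2 replicate 1 (0.0503), untreated replicate 1 (0.1095), untreated replicate 2 (0.129), number 1 (0.189) or number 2 (0.227).

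Scn3b (1383435_at) had signals of 4048, 4808 and 2876 with ET-1, 4346, 4846 and 2956 with ET-2, and 4095, 3943 and 2826 with ET-3, against 4676, 5358 and 3147 on untreated arrays. The gap to untreated was widest on the ET-3 array of number 2. With ET-3 the log2 change was -0.26 ± 0.06 (limma adjusted p = 0.0437). It was -0.16 ± 0.06 with ET-1 (0.227), -0.11 ± 0.06 with ET-2 (0.386) and -0.18 ± 0.05 for the mean (0.0607). The ET-3 call ended in 11 of the 12 fits that each left out 1 array, all but that without untreated replicate 3, and without any 1 of the 3 numbers (highest adjusted p = 0.265). The second Scn3b probe set over the limit (1370850_at) had 1553, 1876 and 1732 with ET-3 against 1914, 2166 and 2124 untreated, with all 3 ET-3 arrays below all 3 untreated arrays. Its log2 change was -0.27 ± 0.06 with ET-3 (limma adjusted p = 0.0275) and -0.20 ± 0.05 for the mean (adjusted p = 0.0256). Its ET-3 call ended without any 1 of the 3 ET-3 arrays, without untreated replicate 1, or without any 1 of the 3 numbers (up to 0.19). Its call for the mean ended without ET-1 replicate 2, ET-2 replicate 1, untreated replicate 1 or 2, or any 1 of the 3 numbers (up to 0.213). That call also ended with quantile normalization (0.0522), and the ET-3 call of this probe set ended with ET-3 and untreated fitted alone (0.188).

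**Figure D1:**
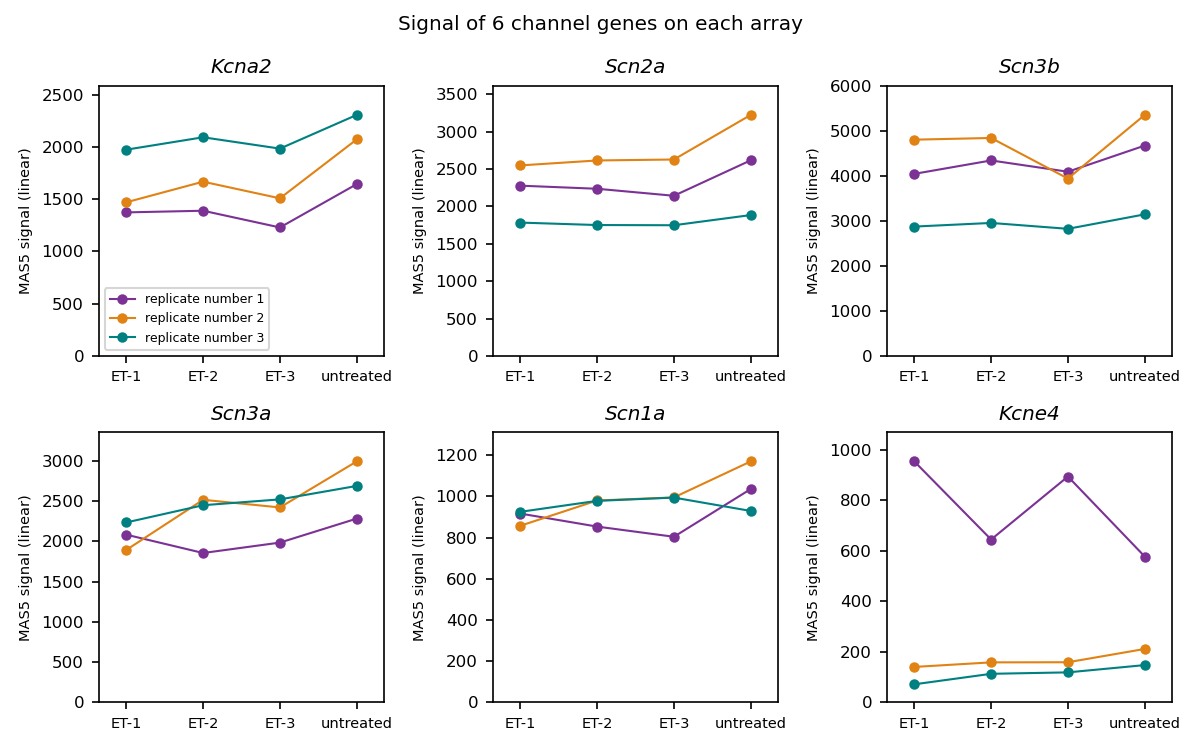
MAS5 signal on a linear scale (y axis) by group (x axis) for 6 channel genes, with 1 point per array and lines joining arrays of the same replicate number. For Kcna2, Scn2a, Scn3b and Scn3a every endothelin point lies below the untreated point of its line, and Kcne4 is high on the 4 arrays of number 1.

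Among the other sodium channel alpha subunits no gene passed the threshold in the main fit. Scn3a, the Nav1.3 pore that is prominent early in development, had signals of 2081, 1892 and 2233 with ET-1, 1854, 2514 and 2447 with ET-2, and 1983, 2419 and 2519 with ET-3, against 2280.4, 2989.9 and 2686 untreated. It had the largest decrease of its class for the mean of the 3 endothelins, and lay below its own untreated array on all 9 endothelin arrays. Its log2 change was -0.35 ± 0.09 with ET-1 (limma adjusted p = 0.0795) and -0.26 ± 0.07 for the mean (0.0664). Scn1a, the Nav1.1 pore, had 916, 857 and 925 with ET-1, 853, 979.7 and 978 with ET-2, and 804, 995 and 994 with ET-3, against 1035, 1169 and 929 untreated. It was lower under numbers 1 and 2 for each endothelin, and its mean log2 change was -0.18 ± 0.08 (limma adjusted p = 0.219). Scn7a, a sodium channel relative that senses extracellular sodium, had 751, 1181 and 1064 with ET-1, 755, 1153 and 1003 with ET-2, and 629, 1254 and 1109 with ET-3, against 808, 950.2 and 1021 untreated. It was the only alpha subunit with a mean log2 change above 0, at 0.07 ± 0.09 (limma adjusted p = 0.724). The class median was -0.21 with ET-1, -0.15 with ET-2 and -0.17 with ET-3. Scn3a and Scn2a are neighbours in the RefSeq gene table with 0 protein-coding genes between them, as are Scn1a and Scn9a, and Scn9a and Scn7a.

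Scn2b, the other beta subunit over the limit, had signals of 985, 1439 and 1298 with ET-1, 973, 1431 and 1349 with ET-2, and 1065, 1384 and 1473 with ET-3, against 1172, 1346 and 1474 untreated. The groups overlapped, and its mean log2 change was -0.08 ± 0.06 (limma adjusted p = 0.476).

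The 14 Kv pore genes ran in both directions. Their median log2 change was -0.09 with ET-1, 0.02 with ET-2 and -0.09 with ET-3, and 9, 6 and 9 of 14 lay below 0 in those comparisons. Kcnh3, a member of the ether-a-go-go family, had the largest increase for the mean of the 3 endothelins. It had 192, 219 and 181 with ET-1, 166, 231 and 274 with ET-2, and 186, 162 and 222 with ET-3, against 172, 185 and 160.1 untreated. These groups overlapped, and its mean log2 change was 0.22 ± 0.15 (limma adjusted p = 0.409). Kcna1, the Kv1.1 pore that can assemble with Kv1.2, had 259, 188 and 296 with ET-1, 256, 229.6 and 190.3 with ET-2, and 264, 157 and 324 with ET-3, against 264, 205 and 192 untreated. Its mean log2 change was 0.11 ± 0.17 (limma adjusted p = 0.763), with 5 of 9 endothelin arrays below and 4 above the untreated array of their number.

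Of the 7 auxiliary subunit genes, none passed the threshold in the main fit. The largest decrease of the class for the mean of the 3 endothelins was that of Kcnip2, one of the calcium-binding KChIP proteins that associate with Kv4 channels. It had 93.3, 132 and 276 with ET-1, 71.2, 155 and 296 with ET-2, and 95.0, 130.5 and 241 with ET-3, against 128, 155 and 312 untreated. The 3 numbers were further apart than the groups, and the mean log2 change was -0.32 ± 0.14 (limma adjusted p = 0.227). Kcnip3, a KChIP also known as a calcium-regulated transcriptional repressor, had the only mean log2 change above 0 in this class, at 0.02 ± 0.16 (limma adjusted p = 0.955). Its signals were 204, 329.9 and 404 with ET-1, 250.0, 364 and 312 with ET-2, and 264, 353 and 229 with ET-3, against 257, 280.0 and 338 untreated. Kcnip1 and Kcnip4, picked out after their values were seen, also lay below the untreated array of their number on all 9 endothelin arrays. Their mean log2 changes were -0.11 ± 0.05 for Kcnip1 (limma adjusted p = 0.2005) and -0.22 ± 0.07 for Kcnip4 (limma adjusted p = 0.113).

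Inward rectifiers, K2P channels and BK subunits gave no call. Kcnj11, the pore of ATP-sensitive potassium channels, had 218, 240.4 and 215 with ET-1, 167, 188 and 226 with ET-2, and 132, 220.2 and 287 with ET-3, against 200.2, 268 and 296 untreated. It lay below its untreated array on 8 of 9 endothelin arrays, with a mean log2 change of -0.29 ± 0.15 (limma adjusted p = 0.2704). Kcnj5, a subunit of G protein-gated channels, had 96.7, 209.8 and 204 with ET-1, 91.1, 231 and 216 with ET-2, and 87.2, 198 and 248 with ET-3, against 109.6, 152 and 254 untreated. Its mean log2 change was 0.01 ± 0.15 (limma adjusted p = 0.981).

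Kcnk12, a K2P family member, had 191, 243 and 190.0 with ET-1, 200.3, 231 and 182 with ET-2, and 239, 231 and 222 with ET-3, against 254, 270.5 and 231 untreated. It was below its untreated array on all 9 endothelin arrays, with a mean log2 change of -0.23 ± 0.10 (limma adjusted p = 0.204). Kcnk1, a weakly rectifying K2P channel, had 214, 243 and 408 with ET-1, 249.9, 242 and 424 with ET-2, and 247, 214 and 371 with ET-3, against 241, 267 and 416 untreated. Its mean log2 change, -0.10 ± 0.10 (limma adjusted p = 0.602), was the smallest decrease of the class for the mean of the 3 endothelins. Kcnk4, a mechanosensitive K2P channel, had 136, 162 and 265 with ET-1, 123, 134 and 205 with ET-2, and 102, 182 and 268 with ET-3, against 134, 191 and 232 untreated, a mean log2 change of -0.12 ± 0.14 (limma adjusted p = 0.645).

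Kcnma1, the BK channel pore, had 343, 335 and 298 with ET-1, 309.6, 388 and 279 with ET-2, and 345, 360.3 and 286 with ET-3, against 469, 333 and 299 untreated. The untreated array of number 1 stood above the rest, and the mean log2 change was -0.15 ± 0.11 (limma adjusted p = 0.487). Its neuronal beta subunit Kcnmb4 had 424, 755 and 665 with ET-1, 422, 829 and 748 with ET-2, and 434, 655 and 743 with ET-3, against 511, 703 and 755 untreated, a mean log2 change of -0.09 ± 0.08 (limma adjusted p = 0.598).

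**Figure D2:**
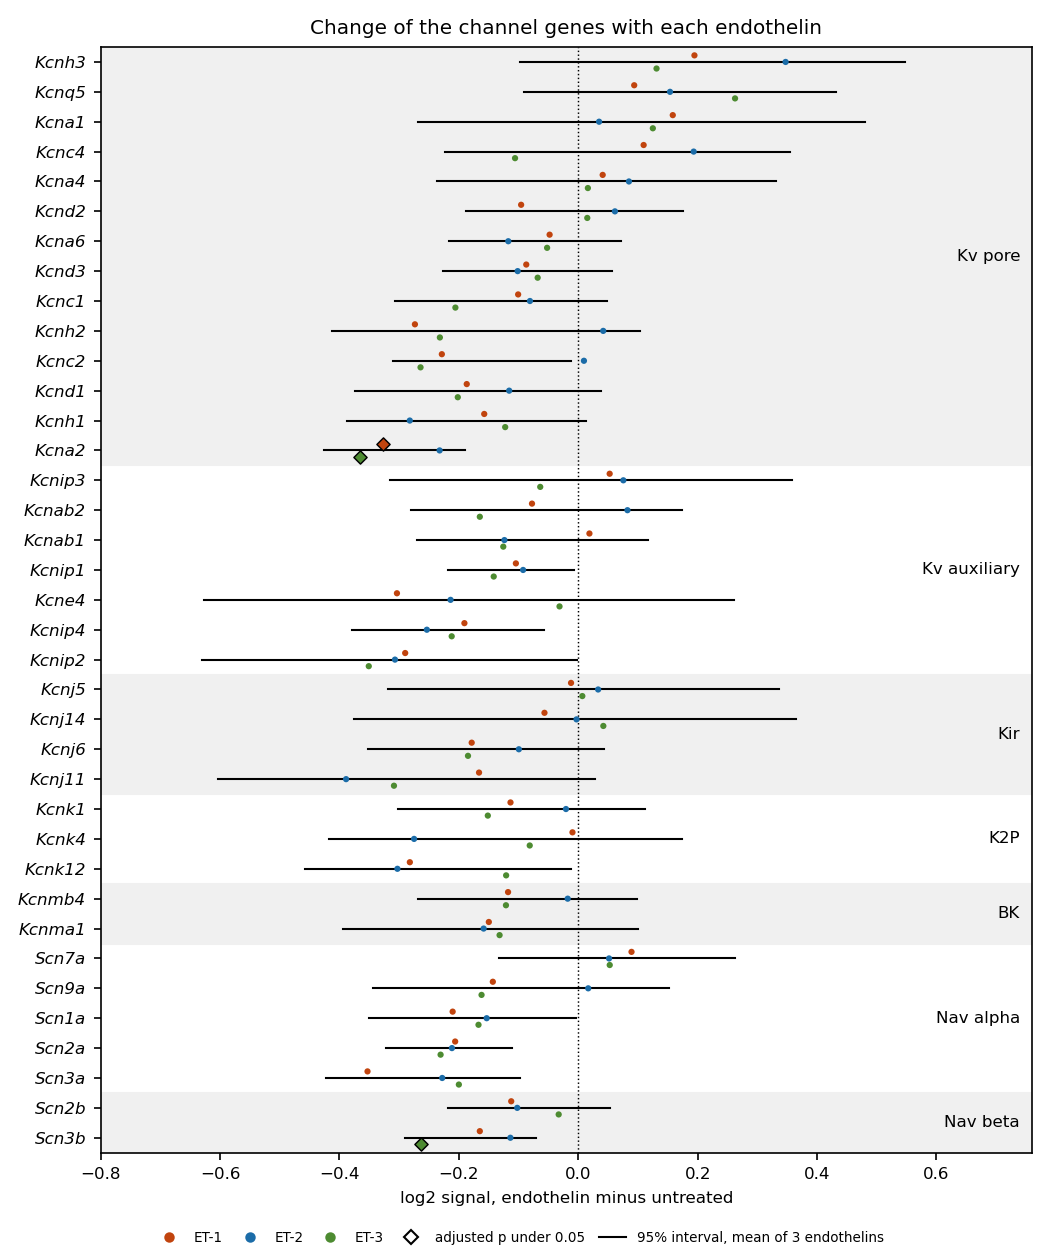
Log2 change in signal, endothelin minus untreated (x axis), for the 37 channel genes (y axis, grouped by role), with points for ET-1, ET-2 and ET-3 and bars for the 95% interval of the mean of the 3 endothelins. Diamonds mark the 3 single-endothelin calls, Kcna2 with ET-1 and ET-3 and Scn3b with ET-3, and the changes run from -0.39 to 0.35.

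As a set, the 37 genes had a median log2 change of -0.11 with ET-1, -0.10 with ET-2 and -0.13 with ET-3, against -0.03, -0.02 and -0.03 over all tested probe sets. For the mean of the 3 endothelins it was -0.11 against -0.03. With arrays centred on their medians, the channel genes' median was -0.138, -0.197, -0.174 and -0.169 for ET-1, ET-2, ET-3 and the mean, against -0.051, -0.12, -0.078 and -0.085 over all tested. Centring shifts every probe set of a comparison alike, and the share of all tested then below 0 is not given here. Counts of genes below 0 with centring therefore have no matched background. With that centring 30, 34, 33 and 32 of 37 lay below 0. Without it, changes below 0 were seen in 29, 24, 29 and 29 of 37 genes for ET-1, ET-2, ET-3 and the mean, against 57.6%, 56.1%, 57.2% and 58.1% of all tested. Lower under all 3 replicate numbers were 13, 13, 13 and 14 of 37, against 20.8%, 21.6%, 21.4% and 23.6% of all tested. Higher under all 3 were 1, 1, 0 and 1, against 14.4%, 14.1%, 14.6% and 14.5%. Below the untreated array of their number on all 9 endothelin arrays were 8 of 37, against 8.05% of all tested, and above it on all 9 were 0 of 37, against 5.59%. The 8 were Kcna2, Kcnip1, Kcnip2, Kcnip4, Kcnk12, Scn2a, Scn3a and Scn3b, and their 9 differences share 3 untreated arrays. No channel gene changed at least 1.5-fold with ET-1, ET-2, ET-3 or for their mean, a size that 2.48%, 2.27%, 2.6% and 2.22% of all tested reached. The 95% interval lay wholly within a 1.5-fold change for 32 of 37 genes with ET-1, 32 with ET-2 and 35 with ET-3. How many of all tested probe sets met this is not given here, so these counts describe precision and have no matched background.

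**Figure D3:**
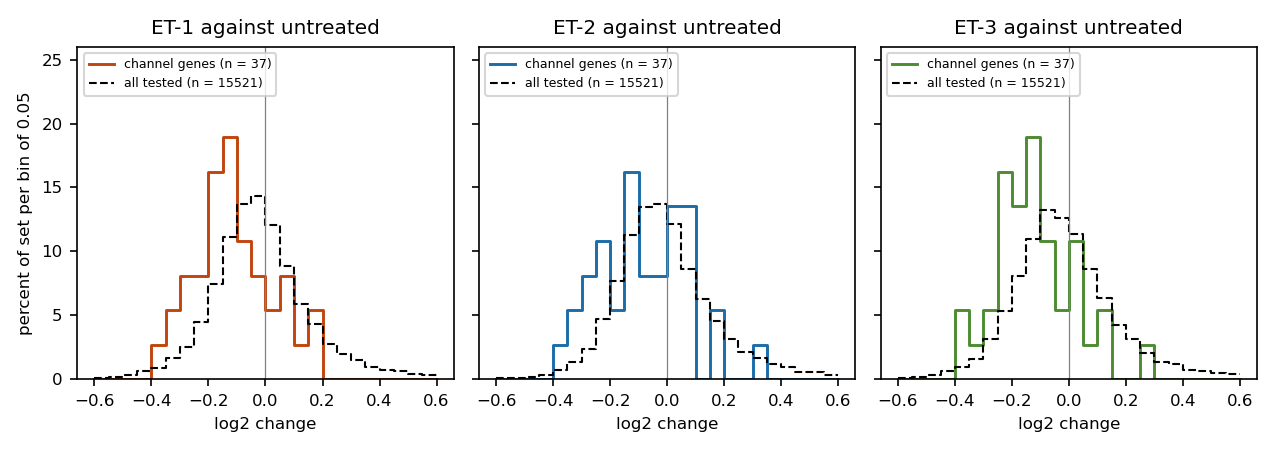
Distribution of the log2 change against untreated (x axis, in bins of 0.05, shown between -0.6 and 0.6) for the 37 channel genes (coloured line) and all 15521 tested probe sets (dashed line), as the percent of each set (y axis). The channel genes' medians are -0.11, -0.10 and -0.13 for ET-1, ET-2 and ET-3, against -0.03, -0.02 and -0.03 over all tested.

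The 3 peptides were also set against each other. Of the 37 genes, 0 passed in any of the 3 pairs, and 0.0% of all 15521 probe sets did so in either direction. At an unadjusted limma p under 0.05, 1 channel gene differed for ET-2 against ET-1, 0 for ET-3 against ET-1 and 2 for ET-3 against ET-2, where 3.7%, 2.24% and 3.76% of all probe sets did. These were Kcnc2 in both pairs and Scn3b in the last, named after their values were seen. Kcnc2, a fast-repolarising Kv3 pore, had 1284, 1647 and 1838 with ET-1, 1245, 2321 and 2206 with ET-2 and 1202, 1669 and 1799 with ET-3. The ET-2 arrays of numbers 2 and 3 were the highest of these. Its log2 difference was 0.24 for ET-2 minus ET-1 (95% interval 0.06 to 0.42, limma adjusted p = 0.9997) and -0.27 for ET-3 minus ET-2 (-0.46 to -0.09, limma adjusted p = 0.9989). The 95% half-width of a pairwise difference, before adjustment, had a median of 0.25 over the 37 genes. Smaller differences could not be resolved for a typical gene, and the adjusted threshold needs larger ones still.

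Replicate number accounted for more of the variance than group in 33 of the 37 channel genes, against 86.5% of all tested probe sets. The 4 exceptions were Kcnh3, Kcnk12, Scn1a and Scn3a. A median of 71.1% of a channel gene's variance over the 12 arrays lay between numbers and 8.0% between groups, against 68.7% and 10.4% over all tested. Arrays of number 1 were lower than those of numbers 2 and 3 for 28 of 37 channel genes, against 58.5% of all tested, with a median log2 difference of -0.28 against -0.06. Kcne4, an auxiliary subunit that inhibits some Kv channels, went the other way and was picked out after its values were seen. Its signals were 954, 140.5 and 71.7 with ET-1, 645, 159 and 113 with ET-2, and 895, 159 and 119 with ET-3, against 578, 212 and 148 untreated, high on all 4 arrays of number 1. With number 1 left out, 0 channel genes were called for ET-1, ET-2, ET-3 or their mean, in fits of 8 arrays that called 95, 32, 90 and 226 of all 15521 probe sets. With number 2 left out the channel gene counts were again 0, where 23, 44, 43 and 224 of all probe sets were called. With number 3 left out they were 0, 0, 1 and 2, where 256, 143, 291 and 550 were called.

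**Figure D4:**
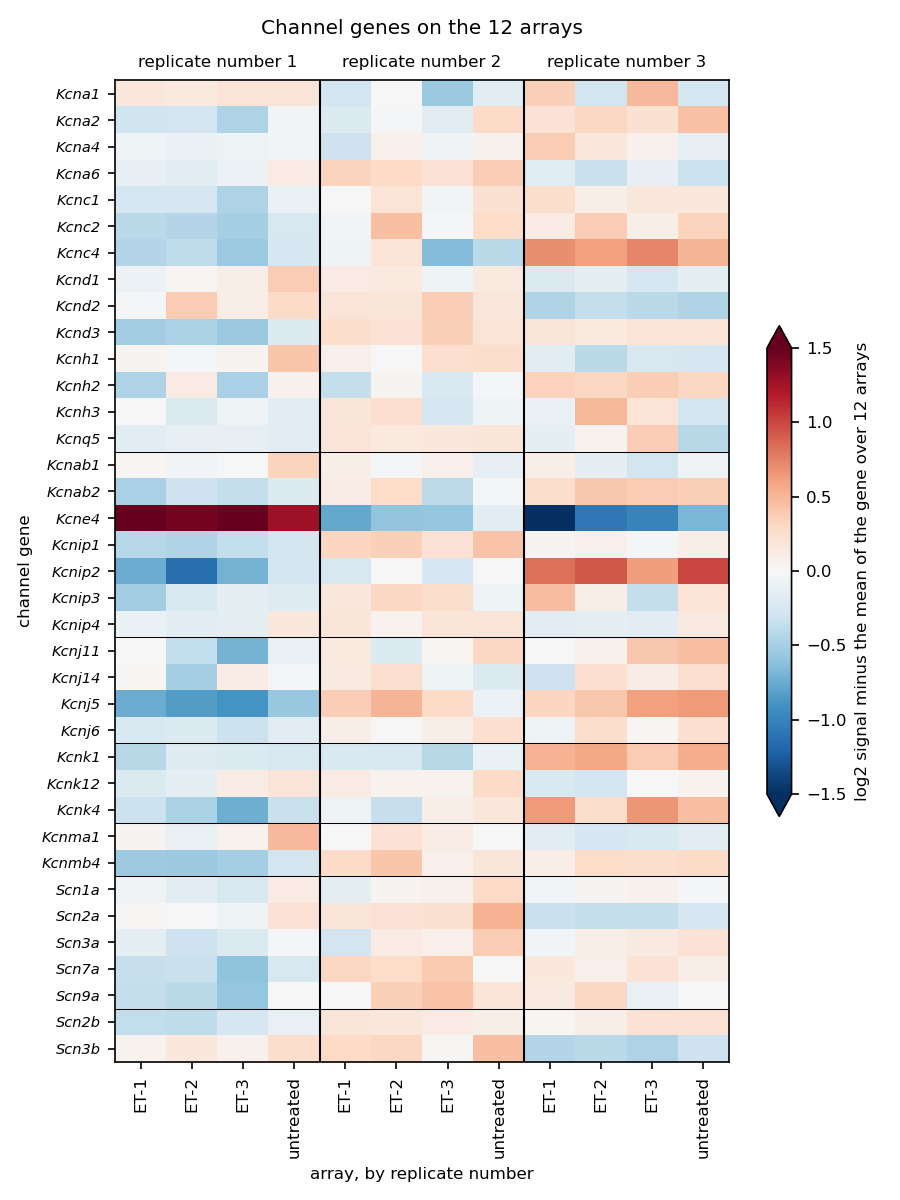
Log2 signal of each channel gene (rows) on the 12 arrays (columns, by replicate number) minus the gene's mean over the arrays; the colour scale stops at -1.5 and 1.5. Most rows change colour between the numbers more than within them, and Kcne4 is high on the 4 arrays of number 1.

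The summed signal of 10 pericyte, smooth muscle and fibroblast markers was 46934 to 55688 on number 1 arrays, against 14759 to 18916 on number 2 and 12560 to 16060 on number 3. Of those over the limit, Col1a1, Col1a2, Col3a1, Dcn, Lum and Pdgfrb were highest on number 1, and Acta2 and Tagln were lowest there. Geometric means on numbers 1, 2 and 3 were 11823, 2223 and 2275 for Col1a2. They were 729, 932 and 1027 for Acta2 and 4684, 6615 and 6227 for Tagln. The sum of 15 RGC markers was 99501 to 103993 on number 1, against 119126 to 131243 on number 2 and 142350 to 155624 on number 3. All 15 measured RGC markers were over the limit, and 0 of 5 photoreceptor and bipolar cell markers were. Between groups, the RGC sum ran from 99826 to 155624 on endothelin arrays against 99501 to 142350 on untreated ones, above the untreated array of its number on 6 of 9. Of these 15, Eomes alone passed the threshold for the mean of the 3 endothelins, at -0.32 ± 0.07 (limma adjusted p = 0.0224), a call that ended without untreated replicate 1 or 2 or number 1 or 2 (up to 0.153). The sum of 11 astrocyte and Mueller glia markers was 22931 to 33734 on endothelin arrays against 19044 to 25137 untreated, and all 9 endothelin arrays lay above the untreated array of their number. In this list Gfap, Aqp4, Aldh1l1, S100b and Rlbp1 were below the limit. Of the 6 glial markers over the limit, 3 rose for the mean of the 3 endothelins. Log2 changes were 0.67 ± 0.05 for Vim, 1.03 ± 0.10 for Gja1 and 0.25 ± 0.04 for Clu (limma adjusted p = 4e-05, 0.00022 and 0.00297). The Clu call ended without number 3 (0.0516). Gja1 was also highest on number 1, with geometric means of 8720, 1096 and 2049 on numbers 1, 2 and 3. Glul, Slc1a3 and Apoe, the rest of the 6, were not called. For Glul, mean log2 signal was 10.296, 10.256 and 10.351 with ET-1, ET-2 and ET-3, against 10.321 untreated. For Slc1a3 it was 8.587, 8.495 and 8.634 against 8.496, and for Apoe 11.068, 11.008 and 11.16 against 11.045. Of 8 pericyte, smooth muscle and fibroblast markers over the limit, Pdgfrb, Acta2 and Tagln rose and Col3a1 fell for the mean, and their 10-marker sum was 13933 to 55688 on endothelin arrays against 12560 to 46934 untreated, above the untreated array of its number on 8 of 9. For the mean, none of 5 microglial, 4 amacrine and 2 oligodendrocyte lineage markers over the limit passed in limma, and the 1 endothelial marker over it, Kdr, fell. The part of these markers in the channel results was not tested.

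Genes that anchor, cluster or modify voltage-gated channels also included decreases. Of 23 listed, 19 were over the limit. With ET-1 and with ET-2 each, 1 of 19 fell and 0 rose, and with ET-3 and for the mean 2 fell and 0 rose, where 0.219%, 0.322%, 0.509% and 1.35% of all tested probe sets were called lower for ET-1, ET-2, ET-3 and the mean. The median log2 change of the 19 was -0.14 with ET-1, -0.15 with ET-2 and -0.14 with ET-3, against -0.03, -0.02 and -0.03 over all tested. Ank3, which encodes ankyrin-G, fell in all of these comparisons. It had signals of 1817, 2004 and 1419 with ET-1, 1709.6, 2200.0 and 1285 with ET-2, and 1731, 2121 and 1467 with ET-3, against 2372, 2440.1 and 1757 untreated. All 9 endothelin arrays lay below the untreated array of their number. Its log2 change was -0.33 ± 0.07 with ET-1 (limma adjusted p = 0.0399), -0.36 ± 0.07 with ET-2 (0.0306), -0.31 ± 0.07 with ET-3 (0.0437) and -0.33 ± 0.06 for the mean (0.0071). The call for the mean ended without untreated replicate 1 (0.0557), number 1 (0.109) or number 3 (0.0562). Each single-endothelin call of Ank3 ended without any 1 of the 3 numbers. It also ended with quantile normalization, where the limma adjusted p was 0.0657, 0.0581 and 0.0733 for ET-1, ET-2 and ET-3. With no filter on low signal these were 0.0711, 0.0541 and 0.0752. With each endothelin and untreated fitted alone they were 0.109, 0.142 and 0.173. The ET-1 call also ended without any ET-1 array, ET-2 replicate 1, ET-3 replicate 2, or untreated replicate 1 or 3 (up to 0.224). The ET-2 call ended without ET-2 replicate 1 or 3 or untreated replicate 1 or 3 (up to 0.18). The ET-3 call ended without any 1 of 10 arrays, all but ET-2 replicate 2 and untreated replicate 2 (up to 0.218). Adam23, a membrane protein that binds LGI proteins, had 2946, 2540.5 and 2068 with ET-3 against 3374, 3356 and 2478 untreated. It fell with ET-3, at -0.29 ± 0.06 (limma adjusted p = 0.0279), and for the mean, at -0.23 ± 0.05 (limma adjusted p = 0.0228). Its ET-3 call ended without any ET-3 array, untreated replicate 2 or 3, or any 1 of the numbers (up to 0.246), and its call for the mean without untreated replicate 2 or 3 or any 1 of the numbers (up to 0.159). The ET-3 call of Adam23 also ended with no filter on low signal (0.0526) and with ET-3 and untreated fitted alone (0.163).

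Of 20 genes for hyperpolarisation-activated, leak and calcium channels, 11 were over the limit. None passed the threshold in limma against untreated with ET-1, ET-2, ET-3 or their mean, and their median log2 change was -0.12, -0.05 and -0.14 with ET-1, ET-2 and ET-3, against -0.03, -0.02 and -0.03 over all tested. Of 10 genes of the sodium-potassium pump, which restores the gradients that these channels use, 6 were over the limit and 1 rose with each endothelin, where 1.51%, 1.28% and 2.13% of all tested were called higher with ET-1, ET-2 and ET-3. That gene was Fxyd5, a regulatory subunit, with 412, 642 and 244 with ET-1, 469.9, 374 and 239.7 with ET-2, and 428, 528 and 262 with ET-3, against 156, 155 and 164 untreated. Every endothelin array lay above every untreated array. Its log2 change was 1.35 ± 0.23 with ET-1, 1.14 ± 0.23 with ET-2 and 1.30 ± 0.23 with ET-3 (limma adjusted p = 0.00919, 0.0298 and 0.0102). Each of these 3 calls ended without number 1 or 2 (up to 0.259). They also ended without ET-1 replicate 2 for ET-1, any ET-2 array or untreated replicate 1 or 2 for ET-2, and ET-3 replicate 1 or 2 for ET-3. With each endothelin and untreated fitted alone the limma adjusted p was 0.0855, 0.0798 and 0.0556. The ET-2 call also ended with no filter on low signal (0.0528). For the mean of the 3 endothelins, the Fxyd5 call held without any 1 array or number, with adjusted p up to 0.0398.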

How the data were processed

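RNA of 12 RGC cultures was hybridised to 1-colour Affymetrix arrays. The authors deposited an intensity for each of 31042 probe sets on every array, on a linear scale, and MAS5 is named in the submitters' processing notes with no settings. The mean of each array after trimming 2% at each end lay between 496.7 and 498.3, and array medians ran from 136.0 to 181.0. Control transcripts and detection calls were not used here.

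The deposited intensity was taken as log2 with no further scaling and no pseudocount. The 15521 probe sets at or above the median mean log2 signal were tested in limma (version 3.58.1, R 4.3.3) in 1 fit of the 12 arrays with 7 contrasts, two-sided, with the prior variance following mean signal (eBayes, trend). Genes were named from the platform annotation where a probe set had 1 symbol (20826 probe sets; 436 had several and 9780 none). All 37 symbols matched the RefSeq gene table. Errors after ± are SE from limma (n = 3 arrays per group).

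The replicate number was a block, because the rule that defines the channel genes compares the groups by number. As a check, deviations from group means correlated at r = 0.684 to 0.912 across probe sets in the 18 pairs of arrays with the same number, and at -0.706 to -0.056 in the 36 pairs with different numbers in different groups. Deviations sum to 0 within a group, so positive values in the 18 pairs push the 36 below 0. The 36 therefore add no separate evidence. The block took the median residual SD to 0.127, against 0.25 without it. The numbers come from the sample titles, but what a number stands for is not in the labels. That arrays of the same number resemble each other is known only from these values.

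The members and all gene lists were chosen with earlier results of these data known. Array values are given for members past the threshold, for the members with the largest rise and fall in each role, for Kcna1, Kcna2, Scn1a and Scn2a, and for those nearest the signal limit; others named are said to be chosen after their values were seen. The fitting code was tested on simulated data, with planted changes larger than those called for the channel genes and the same noise for every probe set. That test does not bear on calls of the size seen for the channel genes. Alternatives were no replicate block, median centring, quantile normalization, a pseudocount of 16, no filter, the next brightest probe set, each array or number left out, and each endothelin fitted alone with untreated.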

Additional observations from a re-analysis of the deposited data

How the results depend on the processing

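Without the replicate block, the number of channel genes called was 0 for ET-1, 0 for ET-3 and 0 for the mean of the 3 endothelins, against 1, 2 and 2 with it; at an unadjusted p under 0.05 that limma fit had 237, 223, 297 and 397 of 15521 probe sets for ET-1, ET-2, ET-3 and the mean. With no filter on low signal the count was 0 for ET-1 and 1 for ET-3, where 183 and 273 of 31042 probe sets were called. With each endothelin and untreated fitted alone it was 0 for ET-1 and 0 for ET-3, on 6 arrays, where 78 and 56 of 15521 probe sets were called. With arrays centred on their medians it was 5 for ET-2 and 5 for the mean, while 1218 and 1492 of 15521 probe sets were called. Named after the fits were seen, these were Kcna2, Kcnh1, Kcnip4, Scn2a and Scn3a for ET-2. For the mean they were Kcna2, Kcnip4, Scn2a, Scn3a and Scn3b, and for ET-3 centring added Scn2a. Centring takes a constant from each array, so it shifts every probe set of a comparison by the same amount. For ET-2 the median over all tested went from -0.023 to -0.12. The channel genes' median log2 difference became -0.027 for ET-2 minus ET-1, against 0.045. Over all tested it went from -0.002 to -0.075. For ET-3 minus ET-2 it became 0.022, against -0.026, and over all tested it went from 0.001 to 0.049. Quantile normalization, a pseudocount of 16 and the next brightest probe set left the counts of called channel genes within 1.5 times. Leaving out 1 array or 1 replicate number gave 0 to 2 channel genes called for ET-1, 0 to 1 for ET-2, 0 to 3 for ET-3 and 0 to 3 for the mean. Some of these fits called genes that the main fit did not. Scn3a was called lower for ET-1 and for the mean without ET-1 replicate 1. Scn2a was called lower for ET-1, ET-2 and ET-3 without untreated replicate 3, and Scn3b for the mean without ET-3 replicate 3. Over the same fits, the channel genes' median log2 change was -0.160 to -0.044 for ET-1, -0.145 to -0.018 for ET-2, -0.170 to -0.057 for ET-3 and -0.158 to -0.061 for the mean. The median difference was -0.010 to 0.072 for ET-2 minus ET-1, -0.023 to 0.022 for ET-3 minus ET-1 and -0.091 to 0.006 for ET-3 minus ET-2. No alternative turned the direction of Kcna2, Scn2a or Scn3b. Of their calls, Kcna2 kept that for ET-1 in 9 of 21 alternatives, for ET-3 in 14 of 21 and for the mean in 16 of 20, Scn2a kept that for the mean in 13 of 20, and Scn3b kept that for ET-3 in 5 of 22. The arrays hold no counts, and 3 per group set the precision.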

Other observations

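Of the 37 channel genes, 5 had a second probe set over the signal limit, and these did not give 1 pattern. Values are log2 changes for the mean of the 3 endothelins, and were picked out after they were seen. The second probe set of Kcnd3, a Kv4 pore, gave -0.23 ± 0.07 (limma adjusted p = 0.0873), against -0.09 ± 0.07 for the brighter one. For Kcnd2, another Kv4 pore, it gave -0.12 ± 0.10 against -0.01 ± 0.08. For Kcnip1 it gave -0.16 ± 0.09 against -0.11 ± 0.05. For Kcnc2, a Kv3 pore, it gave the smaller decrease, -0.04 ± 0.19 against -0.16 ± 0.07. For Scn3b it gave -0.20 ± 0.05 against -0.18 ± 0.05.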
